A study of Homo sapiens with 9 samples.

Results

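The genes of the CDK inhibitors were followed across 3 states of NCI-H358, a human lung adenocarcinoma cell line. The 8 genes CDKN1A, CDKN1B, CDKN1C, CDKN2A, CDKN2B, CDKN2C, CDKN2D and CDKN3 were chosen by name and found among the 60230 genes of the tables by matching Ensembl identifiers to symbols without the version, and all 8 passed the filter on low counts. Cyclin-dependent kinases, or CDKs, drive cells through the division cycle when bound to a cyclin, and these genes encode proteins that hold them back. The CIP/KIP proteins p21 (CDKN1A), p27 (CDKN1B) and p57 (CDKN1C) bind whole cyclin-CDK complexes and chiefly restrain CDK2. The INK4 proteins p16 (CDKN2A), p15 (CDKN2B), p18 (CDKN2C) and p19 (CDKN2D) bind CDK4 and CDK6 and keep the D-type cyclins from them, so that the RB protein stays bound to E2F factors. CDKN3 is unlike both families: it is a phosphatase that removes the activating phosphate from CDKs, and its messenger RNA is typically high in dividing cells.

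The study compared cells that grow under sotorasib, a covalent inhibitor of a mutant RAS protein, with the cells they came from, using poly(A) RNA sequencing of 3 libraries per state. The first state is the resistant derivative NCI-H358-R on drug, grown in 250 nM sotorasib and profiled 4 days after dosing. The second is the same NCI-H358-R derivative off drug, without sotorasib pressure, for a time the labels do not give. The third is parental NCI-H358, sensitive to sotorasib and untreated. NCI-H358-R was raised by continuous culture in the drug until cells grew readily, so the results describe 1 resistant derivative. The study calls the libraries of a state biological replicates without saying that each had its own culture, so the spread behind the p-values is that of these libraries and may in part be technical.

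Libraries held between 33394741 and 34727826 estimated counts on drug, between 25728092 and 33988889 off drug and between 25698500 and 31787105 in parental cells. Levels are given in CPM, counts scaled to a common library total, after TMM scaling, which also removes the pull of a few abundant genes. The scaling factors were between 1.113 and 1.124 on drug, against 0.917 to 0.95 off drug and 0.937 to 0.972 in parental cells, so differences that involve the on-drug state depend on this scaling. With library size alone in its place, the median of all genes moved by 0.26 on the log2 scale on drug versus off drug and by 0.22 on drug versus parental. All 7 epithelial markers, EPCAM and NKX2-1 among them, were at or above 1 TPM in all 9 libraries, with a summed level of 2330 to 3110 TPM on drug, 3670 to 4190 TPM off drug and 3790 to 4570 TPM in parental cells. The 5 fibroblast markers summed to 76.5 to 97.6 TPM on drug, 5.56 to 7.17 TPM off drug and 7.98 to 10.3 TPM in parental cells, with COL1A2, DCN and PDGFRB under 1 TPM in every library. LUM carried most of the fibroblast sum on drug, at 59.2, 80.6 and 68.6 TPM, against 2.66, 1.26 and 1.31 TPM off drug and 1.66, 1.35 and 1.47 TPM in parental cells. COL1A1 was at 16.1, 15.8 and 15.2 TPM on drug, 4.07, 5.37 and 3.71 TPM off drug, and 8.65, 7.29 and 6.51 TPM in parental cells. The 4 endothelial markers summed to 2.9 to 4.15, 4.33 to 4.75 and 1.53 to 2.38 TPM in these states. Among leukocyte markers, PTPRC and CD3E were under 1 TPM in every library, while LYZ was at 1.29 to 1.47 TPM on drug, 1.11 to 4.45 TPM off drug and 1.84 to 2.06 TPM in parental cells. Whether these marker levels play a part in the results was not tested. In bulk RNA, fewer cells of a kind and less RNA per cell cannot be told apart.

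Promoter sequence gives the genes a place in the genome before their levels are described. RefSeq windows of 250 bases before a transcript start (GRCh38.p14) were matched for 7 of the 8 genes, 10 windows in all, and not for CDKN1C. A few windows are printed because they belong to CDKN1A, whose levels were lowest on drug and highest in parental cells, to CDKN2C, the gene that rose on drug against both other states, and to CDKN3, the phosphatase gene. Capitals mark GC boxes (GGGCGG) for CDKN1A, E2F motifs (TTCCCGC or the variant TTCGCGC or the variant TTGCCGC or the variant TTGGCGC) for CDKN2C, and the CHR motif (TTTGAA) and CCAAT boxes (CCAAT) for CDKN3, each searched on both strands.
CDKN1A, chr6:36678464-36678713, plus strand: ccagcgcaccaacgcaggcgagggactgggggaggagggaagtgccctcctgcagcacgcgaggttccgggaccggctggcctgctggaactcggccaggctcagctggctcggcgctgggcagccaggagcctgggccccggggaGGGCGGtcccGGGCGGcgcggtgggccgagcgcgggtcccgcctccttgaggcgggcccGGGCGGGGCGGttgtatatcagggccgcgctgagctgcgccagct
CDKN2C, second of its windows, chr1:50968456-50968705, plus strand: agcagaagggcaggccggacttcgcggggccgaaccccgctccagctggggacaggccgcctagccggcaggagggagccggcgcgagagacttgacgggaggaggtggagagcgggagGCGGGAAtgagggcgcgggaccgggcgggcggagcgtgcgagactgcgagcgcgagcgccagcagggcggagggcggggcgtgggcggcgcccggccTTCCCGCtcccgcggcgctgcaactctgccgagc
CDKN3, chr14:54396757-54397006, plus strand: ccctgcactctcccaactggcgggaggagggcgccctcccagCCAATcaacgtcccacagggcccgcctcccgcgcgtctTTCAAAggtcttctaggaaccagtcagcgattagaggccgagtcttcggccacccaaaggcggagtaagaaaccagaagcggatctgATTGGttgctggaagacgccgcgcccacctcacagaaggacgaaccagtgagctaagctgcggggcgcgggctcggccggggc
The CDKN1A window held 4 GC boxes, which begin 104, 94, 45 and 40 bases before the start, the last pair overlapping each other. The CDKN2C window held E2F motifs at 131 and 34 bases before the start, and was the only 1 of the 10 windows with an E2F motif, which 10.9% of all 35116 windows held. The CDKN3 window held CCAAT boxes at 208 and 83 bases and a CHR motif at 170 bases, and was the only 1 of the 10 with a CHR motif, against 13.3% of all windows. GC boxes were in 7 of the 10 windows, against 42.6% of all windows, and CCAAT boxes in 4, against 32.0%. AP-1 motifs (TGACTCA or TGAGTCA) were in 0 of the 10, against 4.2%, and E-boxes (CACGTG) in 2, against 6.3%. These matches describe letters only. GENCODE transcripts of a gene can begin elsewhere than the RefSeq start used for a window.

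With TMM scaling of counts, most CDK inhibitor genes were lower in resistant cells on drug than in either other state, while CDKN2C was higher. On drug versus off drug, 7 of the 8 genes passed edgeR's quasi-likelihood test at a Benjamini-Hochberg adjusted p under 0.05, where 62.6% of all 17307 tested genes did. Of these, 6 fell and 1 rose, against 31.2% and 31.4% of all genes, and the median log2 fold change of the 8 genes was -0.52, against 0.016 over all genes. On drug versus parental, all 8 passed, where 66.3% of all genes did; 6 fell and 2 rose, against 32.9% and 33.4% of all genes, with a median of -0.30, against 0.016. Off drug versus parental, 4 of the 8 passed, where 55.0% of all genes did, and 2 fell and 2 rose, against 26.6% and 28.4%, with a median of -0.006 against 0.001. With library size alone in place of TMM, 3 genes fell and 2 rose on drug versus off drug, and 3 fell and 2 rose on drug versus parental. On TPM values without TMM scaling, 3 fell in each of these comparisons. Leaving out 1 library gave 4 to 6 lower in each. The 3 comparisons share their libraries in pairs, so they are given side by side and not as independent results.

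**Figure D1:**
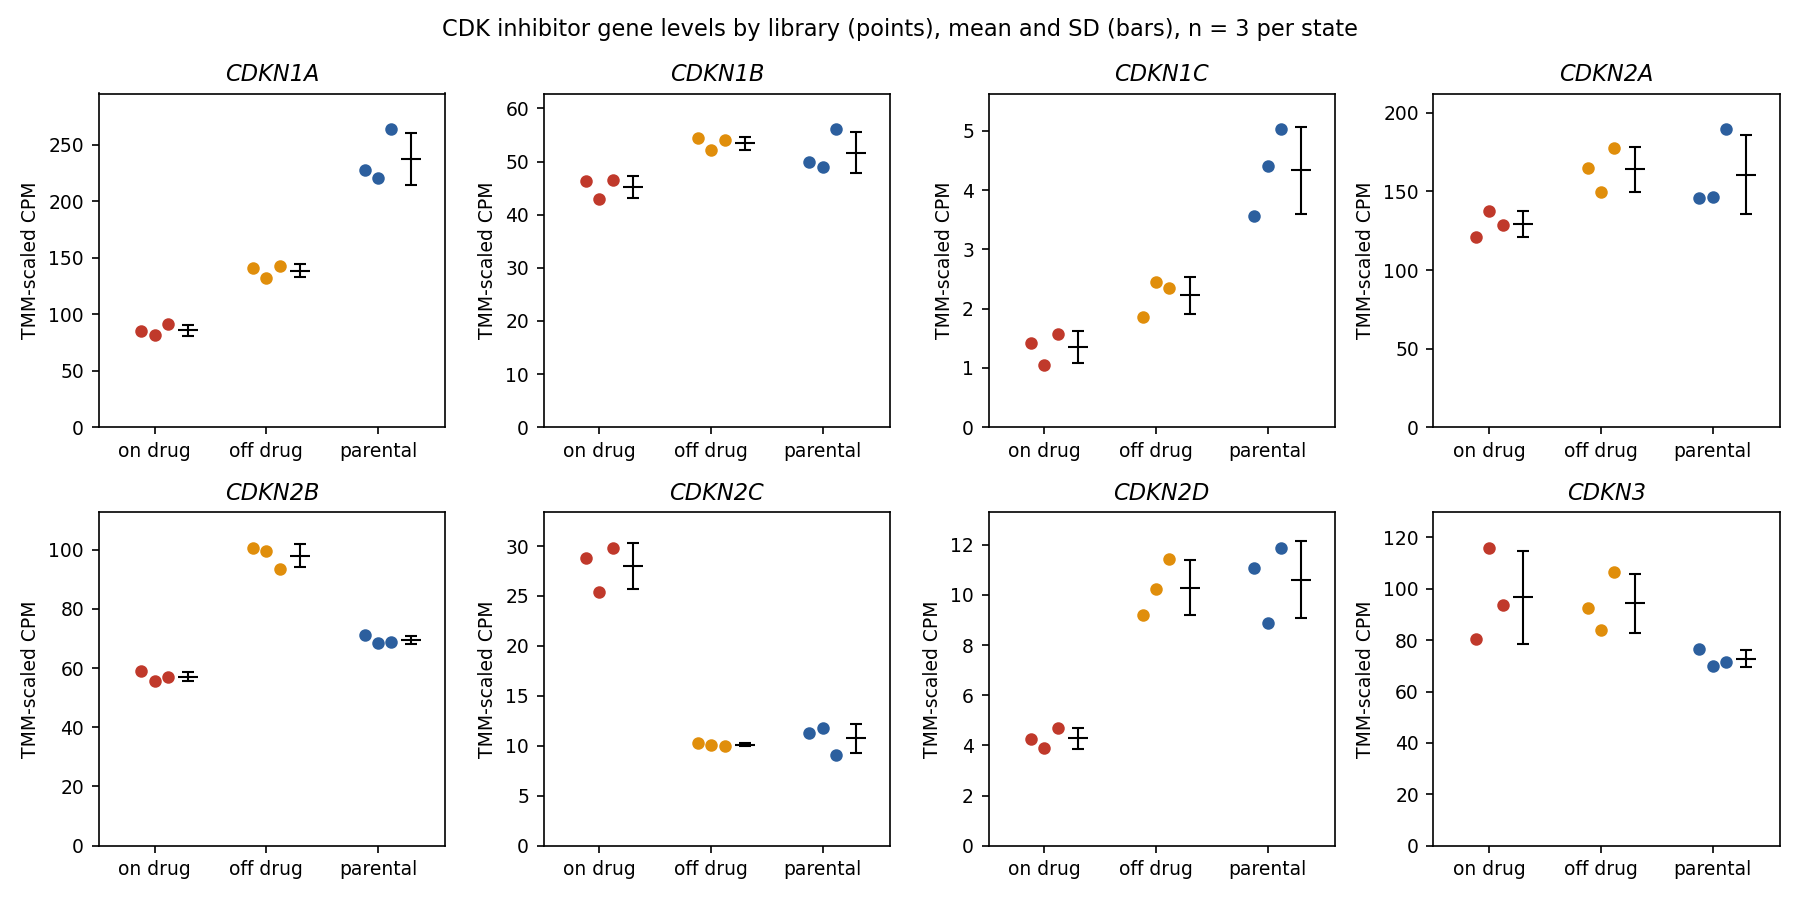
Level of each CDK inhibitor gene in TMM-scaled CPM (vertical axis, from 0) in 3 libraries of resistant cells on drug, resistant cells off drug and parental cells (points), with the mean and SD beside them (bars). CDKN1A is lowest on drug and highest in parental cells, CDKN2B is highest off drug, and CDKN2C is highest in the on-drug libraries.

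CDKN1A (GRCh38, GENCODE 29, chr6:36676460-36687339, plus strand) encodes p21, the CIP/KIP protein best known as a target of p53 and as a brake on CDK2. It was measured at 85.0, 81.3 and 91.2 CPM on drug, 141, 132 and 143 CPM off drug, and 228, 221 and 264 CPM in parental cells. The ranges of the 3 states did not overlap, and the parental libraries were the highest. CDKN1A fell by 0.69 ± 0.085 (SE) on the log2 scale on drug versus off drug (adjusted p = 3.3e-06) and by 0.78 ± 0.085 off drug versus parental (adjusted p = 1.3e-06). On drug versus parental it was 2.77-fold lower, a larger change than that of all but 17.1% of tested genes. It kept its direction and its call in all 22 alternative settings of all 3 comparisons. DINOL, a gene on the opposite strand, covers 146 of its exonic bases, and no label or header gives the strand setting of the counting.

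CDKN1B (chr12:12715058-12722371, plus strand) encodes p27, which accumulates in resting cells and is removed by the SKP2 ubiquitin ligase as cells enter S phase. Its level was the steadiest of the 3 CIP/KIP genes, with 46.3, 42.9 and 46.5 CPM on drug, 54.3, 52.1 and 54.0 CPM off drug, and 49.9, 49.0 and 56.1 CPM in parental cells. The on-drug libraries lay just under the others, while the off-drug and parental ranges overlapped. The log2 difference was -0.24 ± 0.080 on drug versus off drug (adjusted p = 0.016) and -0.19 ± 0.080 on drug versus parental (adjusted p = 0.046). Both calls depended on the setting: the first was lost in 7 of 22 alternative settings and turned to 0.015 with library size alone, and the second was lost in 13 and turned positive in 4 more, among them library size alone (0.033) and TPM values (0.12 to 0.13). Leaving out the second on-drug library or the first off-drug library ended the call against off-drug cells (adjusted p = 0.056 and 0.057), and 8 of the 9 libraries ended the call against parental cells when left out, parental replicate 3 with the smallest difference (-0.13, adjusted p = 0.16). Off drug versus parental the difference was 0.050 (95% interval -0.12 to 0.22).

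CDKN1C (chr11:2883213-2885773, minus strand) encodes p57 and lies in the imprinted region at 11p15, where it is expressed chiefly from the maternal copy. It was the least abundant of the 8 genes, with 54, 39 and 61 counts on drug, 47, 60 and 73 off drug, and 109, 110 and 135 in parental cells. These counts correspond to 1.41, 1.05 and 1.58 CPM on drug, 1.87, 2.46 and 2.34 CPM off drug, and 3.57, 4.41 and 5.03 CPM in parental cells, and none of the ranges overlapped. CDKN1C fell by 0.72 ± 0.23 on drug versus off drug (adjusted p = 0.012), by 0.96 ± 0.21 off drug versus parental (adjusted p = 0.0013) and by 1.68 ± 0.22 on drug versus parental (adjusted p = 4.8e-06). The call against off-drug cells was lost without the second on-drug library (-0.57, adjusted p = 0.054), with library size alone (-0.46, adjusted p = 0.082) and on TPM values, and the call off drug versus parental was lost on log2(TPM + 0.1) (-0.67, adjusted p = 0.056) and on log2(TPM + 1) without a filter (-0.44, adjusted p = 0.096).

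CDKN2A (chr9:21967753-21995301, minus strand) encodes p16 and, from another first exon, p14ARF, which protects p53 by binding MDM2; a gene total cannot separate these products. It was measured at 121, 138 and 129 CPM on drug, 165, 149 and 178 CPM off drug, and 146, 146 and 190 CPM in parental cells. The on-drug libraries were the lowest, and the off-drug and parental ranges overlapped widely. The log2 difference was -0.35 ± 0.10 on drug versus off drug (adjusted p = 0.0090), -0.31 ± 0.10 on drug versus parental (adjusted p = 0.014) and 0.031 off drug versus parental (95% interval -0.19 to 0.25). Without parental replicate 3, which held the 190 CPM, the difference from parental cells was -0.18 (adjusted p = 0.087); on log2(TPM + 1) it was 0.19 (adjusted p = 0.079) and the difference from off-drug cells was -0.011. With library size alone both calls were lost (-0.088 against off-drug cells and -0.089 against parental cells, adjusted p = 0.43 and 0.42), and with upper-quartile factors the call against off-drug cells was lost (-0.21, adjusted p = 0.098). The deposited counts and TPM moved apart for this gene, since counts per unit of TPM, relative to the library median, were 0.16 lower on the log2 scale on drug than in parental cells. This was not particular to CDKN2A: the same measure was 0.22 higher for CDKN2C and 0.155 lower for CDKN2D on drug than in parental cells. The antisense gene CDKN2B-AS1 shares 341 exonic bases (7.88%) with CDKN2A on the opposite strand.

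CDKN2B (chr9:22002903-22009363, minus strand) encodes p15, the INK4 protein known for its induction by TGF-beta, and lies beside CDKN2A at 9p21. Its off-drug libraries stood above those of both other states, with 58.9, 55.7 and 56.9 CPM on drug, 101, 99.7 and 93.6 CPM off drug, and 71.2, 68.4 and 68.9 CPM in parental cells. No ranges overlapped, and the libraries of a state lay close together. CDKN2B rose by 0.50 ± 0.073 on the log2 scale off drug versus parental (adjusted p = 3.2e-05) and fell by 0.78 ± 0.073 on drug versus off drug (adjusted p = 1.5e-07), and both calls held in all 22 alternative settings. On drug versus parental it fell by 0.28 ± 0.073 (adjusted p = 0.0030), but the difference was -0.060 with library size alone (adjusted p = 0.50) and 0.017 on log2(TPM + 1) (adjusted p = 0.89).

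CDKN2C (chr1:50960745-50974633, plus strand) encodes p18, an INK4 protein whose gene is known to be driven by E2F factors, and it was the single INK4 or CIP/KIP gene that rose on drug. Its levels were 28.8, 25.4 and 29.8 CPM on drug, 10.3, 10.1 and 9.95 CPM off drug, and 11.3, 11.8 and 9.12 CPM in parental cells. All 3 on-drug libraries stood far above the other 6, which overlapped each other. CDKN2C was 2.77-fold higher on drug than off drug (log2 1.47 ± 0.11, adjusted p = 7.9e-09) and 2.61-fold higher on drug than in parental cells (log2 1.38 ± 0.11, adjusted p = 1.2e-08). In the first of these comparisons 15.1% of tested genes changed by more. Off drug versus parental the log2 difference was -0.085 (95% interval -0.33 to 0.16). Both calls held in all 22 alternative settings, with log2 differences between 1.27 and 1.72 against off-drug cells and between 1.17 and 1.60 against parental cells.

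CDKN2D (chr19:10566462-10569059, minus strand) encodes p19, an INK4 protein whose level is known to vary over the division cycle. It was measured at 4.26, 3.88 and 4.71 CPM on drug, 9.21, 10.2 and 11.4 CPM off drug, and 11.1, 8.90 and 11.9 CPM in parental cells. The on-drug libraries lay below the other 6, which overlapped each other, so CDKN2D and its relative CDKN2C changed in opposite directions in the same libraries. CDKN2D was 2.4-fold lower on drug than off drug (log2 -1.27 ± 0.14, adjusted p = 8.7e-07) and 2.48-fold lower than in parental cells (log2 -1.31 ± 0.14, adjusted p = 4.9e-07). Off drug versus parental the log2 difference was -0.043 (95% interval -0.33 to 0.24). The calls held in all 22 alternative settings, although on TPM values the difference from parental cells was smaller, down to -0.70.

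CDKN3 (chr14:54396849-54420218, plus strand), the CDK phosphatase gene, was higher in both resistant states. It was measured at 80.3, 116 and 93.9 CPM on drug, 92.4, 84.1 and 107 CPM off drug, and 76.4, 70.1 and 71.6 CPM in parental cells. The resistant ranges overlapped each other and both lay above the parental range. CDKN3 rose by 0.38 ± 0.12 off drug versus parental (adjusted p = 0.014) and by 0.41 ± 0.12 on drug versus parental (adjusted p = 0.0061). On drug versus off drug the difference was 0.034 (95% interval -0.22 to 0.29) and was called only with library size alone (0.29, adjusted p = 0.035) and on TPM values (0.26, adjusted p = 0.037 and 0.038). The off-drug difference from parental cells no longer passed when off-drug replicate 3 was left out (0.28, adjusted p = 0.079) or upper-quartile factors were used (0.29, adjusted p = 0.061), and without on-drug replicate 2 the on-drug difference from parental cells was 0.25 (adjusted p = 0.045).

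**Figure D2:**
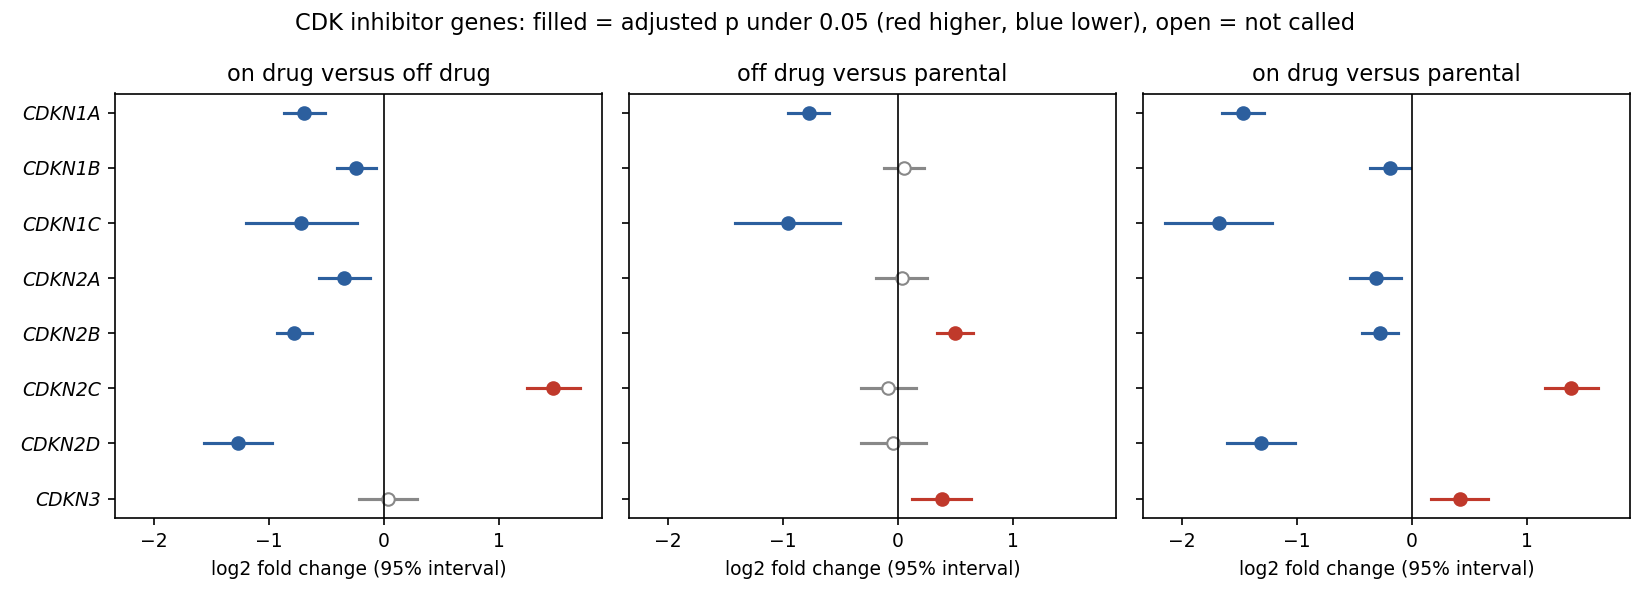
Log2 fold change of each gene with its 95% interval (horizontal axis) in the 3 comparisons; filled points passed an adjusted p of 0.05, red higher and blue lower, and open points did not. CDKN2C stands at 1.47 and 1.38 in the comparisons of on-drug cells and near 0 off drug versus parental, where 4 of the 8 genes are open.

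The ranges of the states did not overlap for 7 of the 8 genes on drug versus off drug, for 4 of 8 off drug versus parental and for 8 of 8 on drug versus parental, where 67.6%, 61.9% and 69.0% of all tested genes did not overlap. Single libraries also ran together across the genes: the second on-drug library was the lowest of its state for 6 of the 8 genes, and parental replicate 3 was the highest of its state for 5. On-drug replicate 3 was the highest of its state for 5 and parental replicate 2 the lowest for 5. No such count was made over all genes. Whether these runs reflect the cells or the libraries was not tested.

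Levels can be set between genes only per length, and TPM, which the authors scaled for transcript length, gives that order. CDKN3 and CDKN2A led in every state, at 234 ± 31.7 and 196 ± 1.90 TPM on drug, 194 ± 14.4 and 198 ± 4.34 TPM off drug, and 144 ± 8.53 and 173 ± 25.5 TPM in parental cells (SD, n = 3). CDKN1A followed at 54.9 ± 5.18 TPM on drug, 73.5 ± 4.21 TPM off drug and 114 ± 6.81 TPM in parental cells. CDKN1C was last in every state, at 1.03 ± 0.238, 1.25 ± 0.216 and 2.07 ± 0.437 TPM on drug, off drug and in parental cells. The middle of the order moved: CDKN2C stood above CDKN2D on drug, at 18.7 ± 2.48 against 5.04 ± 0.767 TPM, and below it off drug, at 5.90 ± 0.487 against 10.0 ± 1.08 TPM, and in parental cells, at 6.58 ± 0.770 against 8.83 ± 1.21 TPM. Neighbours whose ranges overlapped were CDKN1B with CDKN2B and CDKN2B with CDKN2C on drug, and CDKN2A with CDKN3 off drug; no neighbours overlapped in parental cells.

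**Figure D3:**
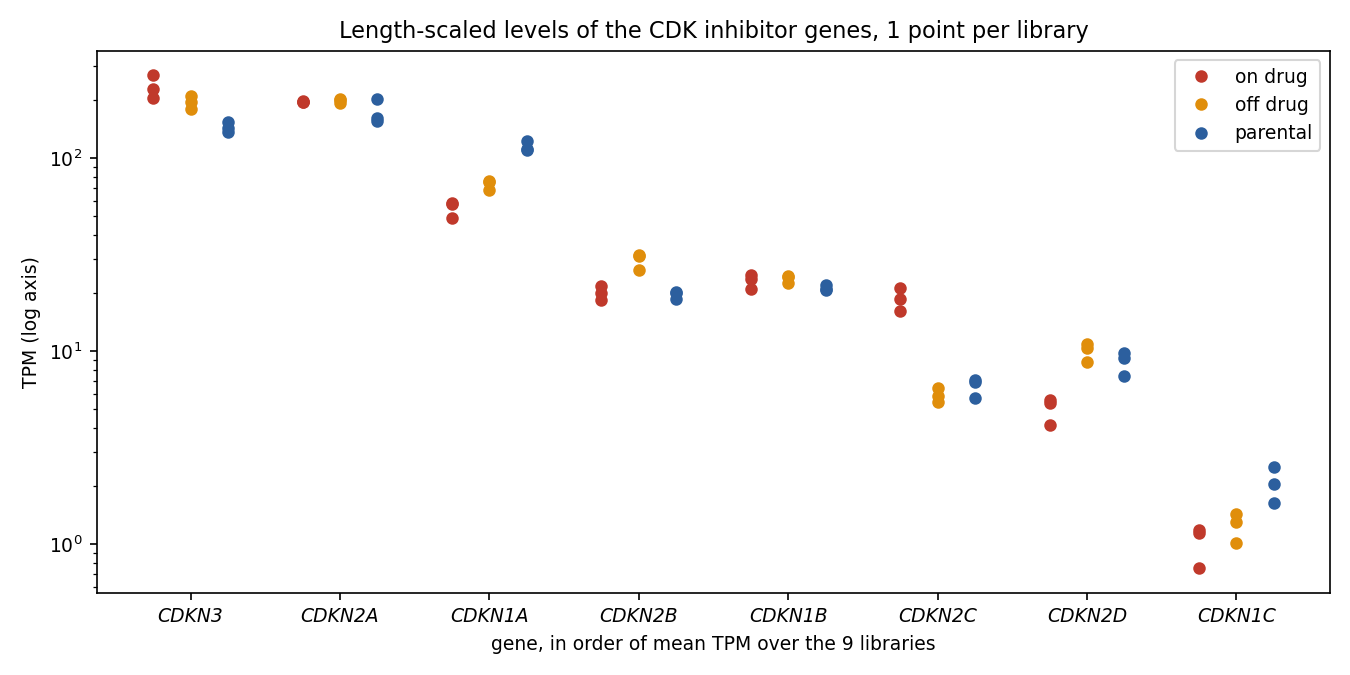
TPM of each gene (vertical log axis) in every library, on drug, off drug and parental from left to right within a gene, with genes in order of mean TPM. CDKN3 and CDKN2A lie above 100 TPM, CDKN1C between 0.75 and 2.51 TPM, and CDKN2C and CDKN2D trade places between the on-drug libraries and the rest.

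Summed by family, the CIP/KIP genes held 84.2, 70.6 and 82.4 TPM on drug, 102, 101 and 92.5 TPM off drug, and 133, 133 and 147 TPM in parental cells. The sums were lowest on drug and highest in parental cells with no overlap, and CDKN1A made up the largest share in every library. The INK4 genes summed to 240 ± 5.54 TPM on drug, 244 ± 1.21 TPM off drug and 208 ± 24.6 TPM in parental cells (SD, n = 3), and the on-drug range overlapped both others, while the off-drug and parental ranges did not overlap each other. CDKN2A made up 79.8% to 85.5% of the INK4 sum in every library. These sums carry no TMM scaling, and the place of on-drug cells in the INK4 order depends on the measure. In TMM-scaled CPM, CDKN2A averaged 129 on drug, 164 off drug and 161 in parental cells. By the edgeR test, CDKN2A, CDKN2B and CDKN2D were called lower and CDKN2C higher on drug versus parental. The CIP/KIP share of the 7 genes was 23.2% to 25.7% on drug, 27.5% to 29.4% off drug and 38.3% to 40.9% in parental cells. Within the CIP/KIP family, CDKN1B made up 28.8% to 29.6% on drug, 23.9% to 24.3% off drug and 14.9% to 15.8% in parental cells. Within the INK4 family, CDKN2C made up 6.9% to 8.7% on drug, 2.2% to 2.6% off drug and 2.4% to 3.7% in parental cells. RNA shares say nothing of protein amounts, which were not measured here.

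The kinases and cyclins that these inhibitors bind were followed from a list. The sums of TPM given first carry no TMM scaling. In TMM-scaled CPM, CDK4 averaged 236 on drug and 205 off drug, while CDK6 averaged 59.2 on drug and 92.7 off drug. CDK4 and CDK6 together held 252 ± 10.9 TPM on drug, 198 ± 6.33 TPM off drug and 135 ± 11.6 TPM in parental cells, while the D-type cyclins held 147 ± 13.4 TPM on drug, 214 ± 12 TPM off drug and 102 ± 15.3 TPM in parental cells (SD, n = 3). The E-type cyclins, partners of CDK2, held 49.4 ± 4.90 TPM on drug, 4.99 ± 0.415 TPM off drug and 2.88 ± 0.443 TPM in parental cells. CCNE2, an E-type cyclin gene, was at 59.0, 77.1 and 63.0 CPM on drug, 6.11, 4.30 and 6.16 CPM off drug, and 2.29, 2.48 and 2.49 CPM in parental cells. Of the 16 listed kinase and cyclin genes, 14 were tested; on drug versus off drug 4 rose and 5 fell, off drug versus parental 10 rose and 1 fell, and on drug versus parental 9 rose and 3 fell, with median log2 fold changes of -0.015, 0.47 and 0.54. These calls make up 64.3%, 78.6% and 85.7% of the 14, against 62.6%, 55.0% and 66.3% of all tested genes, so the first share is near the background. With library size alone 7 rose on drug versus off drug and the median was 0.24, and it was also positive with upper-quartile factors (0.12) and on TPM values (0.16 to 0.17); on TMM-scaled TPM 2 rose. By edgeR's quasi-likelihood test with Benjamini-Hochberg adjustment, CCNE2 rose by 3.58 ± 0.14 (adjusted p = 3.2e-12) and CCNE1 by 2.50 ± 0.20 (adjusted p = 2.9e-08) on drug versus off drug. CCND1, the main D-type cyclin gene here, fell by 0.96 and CDK7, whose kinase activates other CDKs, fell by 0.95 in the same comparison. CDK6 fell by 0.65 there, and CDK4 was not called (0.20, adjusted p = 0.058 by the same test). Off drug versus parental, CCND1 rose by 1.16 and CDK6 by 0.98.

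CDK inhibitor proteins are also removed by ubiquitin ligases, so the genes of that machinery were followed from a list. All 14 were tested: on drug versus off drug 7 rose and 6 fell, off drug versus parental 9 rose and 1 fell, and on drug versus parental 9 rose and 1 fell, with medians of 0.18, 0.32 and 0.37. The shares called were 92.9%, 71.4% and 71.4%, against 62.6%, 55.0% and 66.3% of all tested genes. The median on drug versus off drug was 0.31 with upper-quartile factors, 0.43 with library size alone and -0.012 on TMM-scaled TPM, and the 1 that fell in each of the other comparisons became 2 in some settings. SKP2, the receptor that marks p27 for removal, was at 59.9, 60.8 and 60.9 CPM on drug, 28.8, 27.4 and 30.9 CPM off drug, and 32.8, 30.7 and 29.8 CPM in parental cells. The on-drug libraries stood clear of the others, and SKP2 rose by 1.06 ± 0.080 on drug versus off drug (adjusted p = 1.1e-08). PCNA, on which the CRL4 ligase finds p21, rose by 1.63 ± 0.087 in that comparison, and DTL, the receptor subunit of that ligase, rose by 0.81. CUL4B, also listed, fell by 0.79 ± 0.089 there and was among the 6 that fell, so the listed genes did not move in 1 direction. DTL rose in both other comparisons too, by 2.04 off drug versus parental and by 2.86 on drug versus parental, and was at 30.5, 26.8 and 29.1 CPM on drug, 17.4, 16.1 and 15.8 CPM off drug, and 3.79, 4.25 and 3.91 CPM in parental cells.

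The E2F and RB family, which acts downstream of the CDKs that the INK4 proteins restrain, had 11 listed genes, all tested. On drug versus off drug 4 rose and 3 fell, off drug versus parental 6 rose and 0 fell, and on drug versus parental 8 rose and 2 fell, with medians of 0.053, 0.74 and 1.05. The shares called were 63.6%, 54.5% and 90.9%, the first and second near the 62.6% and 55.0% of all tested genes and the last above 66.3%. E2F1, an activator of S-phase genes, was at 45.9, 47.1 and 58.2 CPM on drug, 10.2, 9.74 and 9.82 CPM off drug, and 3.27, 4.05 and 5.85 CPM in parental cells, with no overlap between states. E2F1 rose by 2.34 ± 0.15 on drug versus off drug (adjusted p = 1.0e-09) and by 1.19 ± 0.17 off drug versus parental (adjusted p = 2.0e-05). E2F2 rose by 3.67, E2F8 by 1.95 and RBL1, which encodes the RB relative p107, by 1.59 on drug versus off drug. With library size alone in place of TMM, 8 of the 11 rose on drug versus off drug.

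Among 22 listed transcription regulators of these genes, all tested, 6 rose and 8 fell on drug versus off drug, 13 rose and 5 fell off drug versus parental, and 10 rose and 5 fell on drug versus parental. These are 63.6%, 81.8% and 68.2% of the list, against 62.6%, 55.0% and 66.3% of all tested genes. The medians were -0.058, 0.25 and 0.16, and the first turned positive with upper-quartile factors (0.074) and with library size alone (0.20). TP63, a p53 relative, was at 15.1, 15.5 and 14.6 CPM on drug, 3.65, 5.69 and 3.21 CPM off drug, and 50.3, 50.7 and 39.1 CPM in parental cells. It fell by 3.50 ± 0.16 off drug versus parental (adjusted p = 1.5e-10) and rose by 1.86 on drug versus off drug. TP73, another p53 relative, rose by 2.01 on drug versus off drug and fell by 2.18 off drug versus parental. KLF4, an activator of CDKN1A in epithelial cells, fell by 1.89 ± 0.076 on drug versus off drug (adjusted p = 6.2e-12) and by 1.70 on drug versus parental. SMAD3, a TGF-beta effector, fell by 1.55 and EZH2, the polycomb enzyme that represses the CDKN2A locus, rose by 1.70 on drug versus parental. ETS1, an activator of CDKN2A, rose by 1.82 off drug versus parental and fell by 1.80 on drug versus off drug. None of these values tests whether a regulator acts on a CDK inhibitor gene here.

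Genes beside the inhibitor loci were listed to show whether a change was shared along the chromosome. At 9p21, 4 of 5 genes were tested: on drug versus off drug 2 rose and 1 fell, and off drug versus parental 1 rose and 0 fell. On drug versus parental 2 rose and 0 fell, or 4 rose with library size alone. The shares called were 75%, 25% and 50% of the 4, against 62.6%, 55.0% and 66.3% of all tested genes. MTAP, a metabolic gene next to CDKN2A, was at 41.6, 35.6 and 37.9 CPM on drug, 63.1, 67.6 and 61.1 CPM off drug, and 35.9, 42.8 and 35.1 CPM in parental cells. Like CDKN2B it was highest off drug, falling by 0.74 ± 0.093 on drug versus off drug (adjusted p = 4.5e-06) and rising by 0.75 ± 0.094 off drug versus parental (adjusted p = 5.7e-06). CDKN2A, beside both, was not called off drug versus parental (0.031), and MTAP was the only listed 9p21 neighbour called there. CDKN2B-AS1, the antisense transcript of the locus, rose by 0.62 on drug versus off drug (adjusted p = 0.044) and by 0.62 on drug versus parental (adjusted p = 0.040). It was low, at 2.20, 3.26 and 2.38 CPM on drug, and both adjusted p-values lie near the threshold. The 2 genes that rose at 9p21 became 1 in each on-drug comparison with DESeq2, with the replicate block and in some fits leaving out a library. Reads of CDKN2B-AS1 cannot be told apart from those of CDKN2A where their exons overlap without a strand setting.

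At the imprinted 11p15 region around CDKN1C, 6 of 8 listed genes were tested. On drug versus off drug 0 rose and 3 fell, off drug versus parental 2 rose and 2 fell, and on drug versus parental 1 rose and 3 fell, with medians of -1.02, -0.13 and -1.39. The shares called were 50%, 66.7% and 66.7% of the 6, against 62.6%, 55.0% and 66.3% of all tested genes, so the last is near the background. Off drug versus parental the median turned positive on TPM values, at 0.14 on log2(TPM + 1), and without a filter on low values the median on drug versus parental was -0.009. IGF2, a growth factor gene, was at 2.35, 2.64 and 1.99 CPM on drug, 11.8, 15.1 and 13.03 CPM off drug, and 32.2, 32.9 and 28.9 CPM in parental cells. Like CDKN1C it was lowest on drug and highest in parental cells, and it fell by 2.51 on drug versus off drug and by 1.24 off drug versus parental. SLC22A18, a transporter gene next to CDKN1C, likewise fell by 1.94 ± 0.14 (adjusted p = 9.0e-09) and by 1.44 ± 0.13 (adjusted p = 1.1e-07) in those comparisons. PHLDA2, another maternally expressed gene, fell by 2.75 on drug versus off drug, and H19, the noncoding RNA beside IGF2, rose by 2.91 off drug versus parental and by 2.89 on drug versus parental. NAP1L4 rose by 0.25 off drug versus parental and was not called in the on-drug comparisons. KCNQ1OT1 was not called in any comparison, at 0.21 on drug versus off drug, -0.26 off drug versus parental and -0.045 on drug versus parental.

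**Figure D4:**
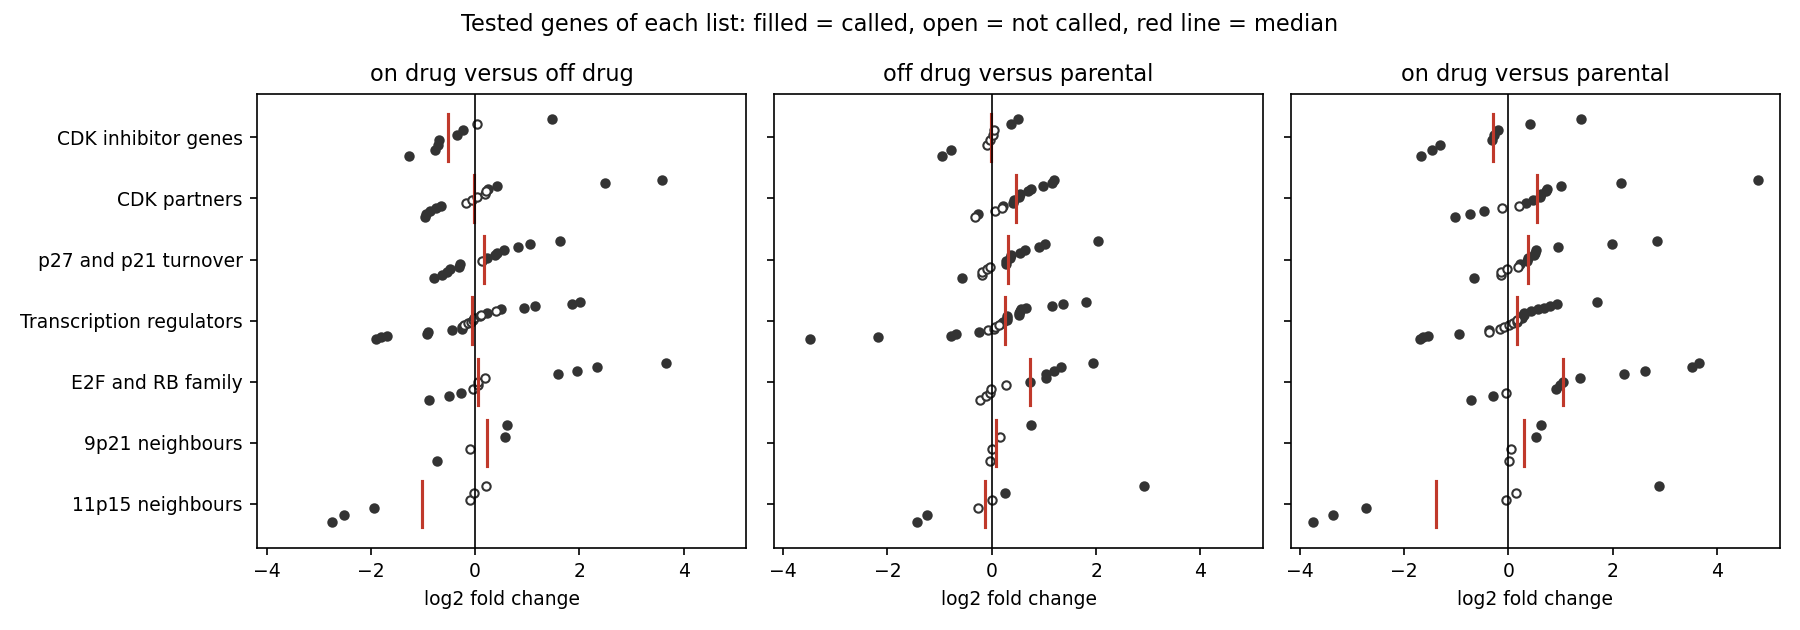
Log2 fold change (horizontal axis) of every tested gene of the inhibitor set and of each listed group in the 3 comparisons; filled points were called at an adjusted p under 0.05, open points were not, and the red line is the median. The inhibitor genes lie mostly left of 0 in the on-drug comparisons with CDKN2C alone far to the right, and 8 of the 11 genes of the E2F and RB family lie right of 0 on drug versus parental, with a median of 1.05.

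The genes most like each inhibitor gene over the 9 libraries were found by the root mean square difference in centred log2 CPM, among 10965 candidate genes (10966 for CDKN1C). For CDKN1A they were ETFB, FAM110A and NIPSNAP1, at 0.070 to 0.073, against a spread of 0.60 for CDKN1A itself. For CDKN2C they were TLE4, STK38 and PEG10, at 0.072 to 0.098, against its own spread of 0.68. CDKN2B was followed most closely by TPM4, ITGB1 and APOL6 (0.040 to 0.054, own spread 0.32), and CDKN2D by EVI5, TBC1D10A and HS3ST1 (0.119 to 0.123, own spread 0.62). CDKN3 was most like MAD2L1, a gene of the spindle checkpoint, at 0.042, followed by PPIL1, against its own spread of 0.24. CDKN1C was most like KCNMB4, CST3 and SH3BP1, at 0.132 to 0.149, and the nearest genes to CDKN1B and CDKN2A, which varied least, were RPN1 at 0.036 and RPLP0 at 0.054. With 3 states and 9 libraries, many genes share a step pattern, and these distances describe likeness only.

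**Figure D5:**
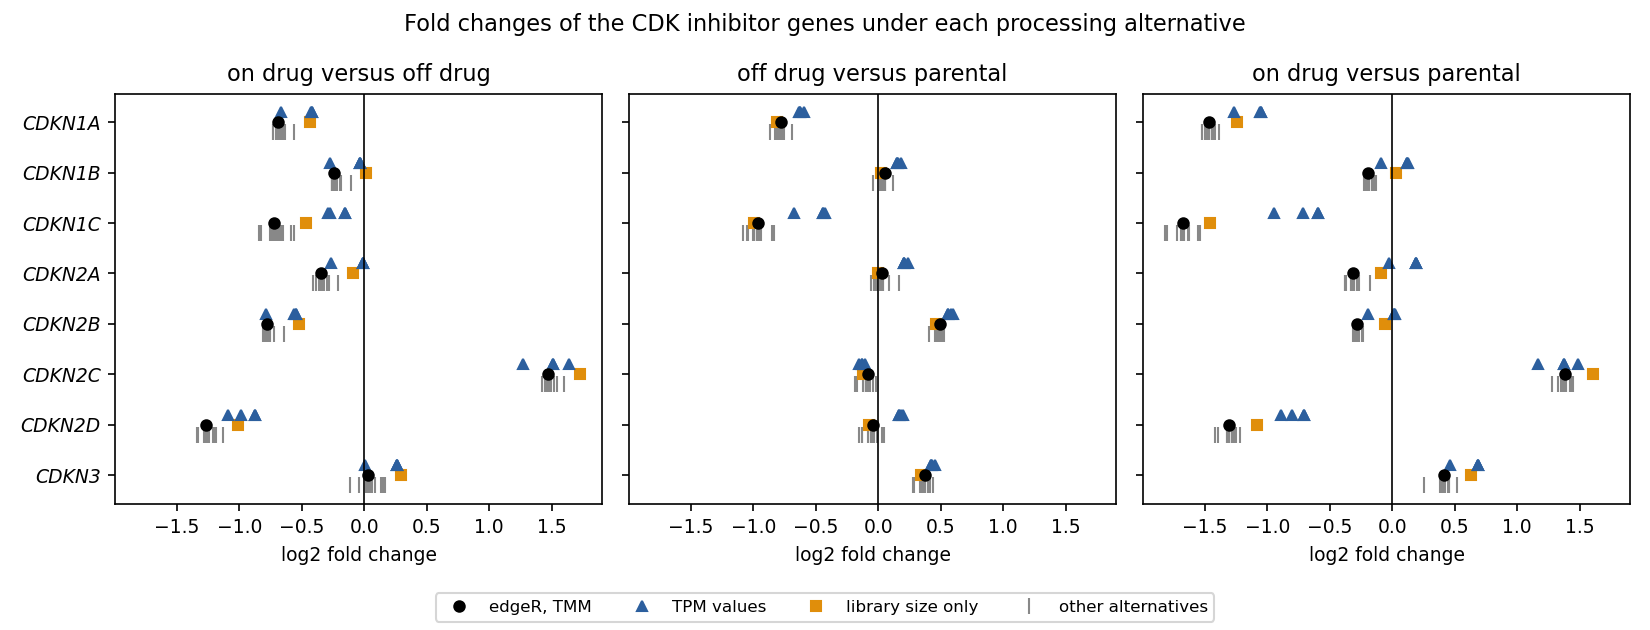
Log2 fold change (horizontal axis) of each gene in the 3 comparisons with edgeR and TMM scaling (black points), on TPM values (blue triangles), with library size alone (orange squares) and in the other alternatives (grey ticks). CDKN1A, CDKN2C and CDKN2D stay on their side of 0 in both on-drug comparisons, while CDKN1B, CDKN2A and CDKN2B reach or cross 0 on drug versus parental.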

How the data were processed

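Poly(A) RNA of 9 NCI-H358 libraries was prepared with the NEBNext Ultra II RNA kit, per the labels' protocols. The submitters' processing notes name Salmon 0.14.1, FastQC 0.12.1, bcl2fastq 2.17 and GRCh38.p13, with no order. Which annotation and strand setting were used, and how transcripts became genes, is not stated there. Estimated counts per gene, unscaled and not whole, were deposited, as were TPM values that the authors scaled for length. Whole counts had been assumed in the design, so estimated counts were rounded first.

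Fold changes come from edgeR 4.0.16 (R 4.3.3): all 9 libraries entered 1 model with group means, TMM scaling, filterByExpr (minimum count 10, minimum total 15) and the quasi-likelihood test, with 6 residual degrees of freedom and a common biological coefficient of variation of 0.0946. A gene was called at an adjusted p under 0.05, Benjamini-Hochberg over all 17307 tested genes per comparison. Standard errors divide the size of the log2 fold change by the root of the F statistic. The scripts were tested on simulated data. Alternatives were other scalings and filters, DESeq2 1.42.0, limma 3.58.1 (voom, or log2 TPM with a pseudocount of 1 or 0.1), a replicate block, fits of the compared groups alone and leaving out each library; a fit on TMM-scaled TPM was added after seeing the data. Counting error at this depth is largest for CDKN1C and next for CDKN2D.

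Members and lists were chosen with earlier results of these data known. All 8 members are named. From each list, called genes may be named, up to 4 per comparison by size of change, at an average log2 CPM of at least 1. CDK4 and CDK6 are also named beside their sum, and KCNQ1OT1 as a neighbour that was not called. The nearest 3 genes in pattern were taken at an average log2 CPM of at least 2. A gene near in pattern and a leukocyte marker, with its list's sum, are not reported here. Positions are from GENCODE 29 (GRCh38), matched by gene identifier. No pair of libraries agreed within sampling noise (chi-square over its degrees of freedom at least 5.114).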

Additional observations from a re-analysis of the deposited data

How the results depend on the processing

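Of 24 gene and comparison pairs, 15 kept their side of the threshold in all 22 alternative settings, with no called value changing sign: CDKN1A in all 3 comparisons, CDKN2B off drug versus parental and on drug versus off drug, CDKN2C and CDKN2D in all 3, CDKN1C and CDKN3 on drug versus parental, and CDKN1B and CDKN2A off drug versus parental. RLE factors, limma voom, the stricter filter and the replicate block changed no member's call. Deviations of same-numbered libraries correlated between -0.034 and 0.135, and those of differently numbered libraries between -0.1 and 0.067. With 3 libraries per state these correlations cannot settle whether the replicate numbers pair the libraries. With the block, 7 members were called on drug versus off drug, 4 off drug versus parental and 8 on drug versus parental. CDKN1B turned to 0.015 on drug versus off drug and to 0.033 on drug versus parental with library size alone, and to 0.121, 0.126 and 0.121 on drug versus parental on log2(TPM + 1), on log2(TPM + 0.1) and on log2(TPM + 1) without a filter. On the same 3 TPM fits, CDKN2A on drug versus parental turned to 0.192, 0.193 and 0.192, and CDKN2B to 0.017, 0.018 and 0.017. Library size alone gave 2 higher and 3 lower members on drug versus off drug and 5 called and 3 lower on drug versus parental. The 3 TPM fits gave 3 lower on drug versus off drug (with 2 higher in the filtered fits, and 4 called without a filter), 5 called and 3 lower on drug versus parental, as did TMM-scaled TPM, and 1 lower off drug versus parental on log2(TPM + 0.1) and without a filter. Upper-quartile factors left 1 member higher off drug versus parental. Leaving out 1 library gave 1 to 2 higher off drug versus parental (1 without off-drug replicate 3), 4 to 6 lower on drug versus off drug (4 without on-drug replicate 2, which ended CDKN1B and CDKN1C), and 6 to 8 called on drug versus parental. Over all genes, those lower numbered 2529, 2531 and 2671 on the 3 TPM fits and 2412 on TMM-scaled TPM off drug versus parental, against 4602; 3585 with library size alone and 2995, 2975 and 3000 on the TPM fits on drug versus off drug, against 5403; and 2828, 2802 and 3162 on drug versus parental, against 5690. With TMM-scaled TPM, 3510 were higher and 4719 lower on drug versus off drug, and with library size alone 7784 were higher. The library-size fit used the 17307 genes of the main fit. The TPM fits, TMM-scaled TPM among them, picked genes on average TPM instead, with a cutoff of 1, or used no filter. Their counts and those of the main fit are therefore over different sets of genes and cannot be compared as shares. The cause of these shifts was not tested. Depth limits CDKN1C most, at 39 to 135 counts per library, and CDKN2D next, at 144 to 356.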
